A study of Mus musculus with 8 samples.

Results

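The glutathione peroxidase family of the mouse, Gpx1 to Gpx8, was examined in R1 embryonic stem cells that carried a hairpin against Mkrn1. The genes were taken by symbol from the deposited expression table, using probe sets to which the platform annotation gives exactly 1 gene symbol and, for a gene with several, the brightest of them on average. All 8 genes were found among 19937 measured genes, on 9 probe sets, because Gpx4 has 2. The family was picked with the difference between the hairpins already known, so for its members that difference is a description, with values and errors and no p-value, and the calls of the fit over all genes are listed only beside their background.

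Glutathione peroxidases reduce hydrogen peroxide and organic hydroperoxides with electrons from glutathione, and the oxidised glutathione is restored by glutathione reductase. GPX1 to GPX4 of the mouse carry the rare amino acid selenocysteine in the active site, which is inserted at a UGA codon by a dedicated translation machinery, whereas GPX5 to GPX8 carry cysteine. GPX4 stands apart in reducing hydroperoxides within membrane phospholipids. It thereby restrains ferroptosis, a form of cell death driven by iron and lipid peroxidation, and it is needed for early mouse development.

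R1 is a male line of 129X1 x 129S1 background derived from the inner cell mass of the blastocyst. Cells of both groups grew in gelatinised wells with LIF and serum, received a pLKO.1 plasmid by lipofection, were kept in puromycin for 4 days and were lysed 6 days after transfection. The control plasmid encoded a hairpin against GFP (shGFP, arrays 1, 3, 5 and 7) and the other a hairpin against MKRN1 (shMKRN1, arrays 2, 4, 6 and 8), a RING-type ubiquitin ligase with RNA-binding zinc fingers. Delivery was transient and only 1 hairpin was used per target. Values are RMA log2 levels, so a difference of 1 is a doubling, and they rank arrays for 1 gene but not genes against each other. Whether each array had its own transfection is not stated in the labels, and errors and p-values therefore measure only how far these samples scatter, possibly for technical reasons. Mkrn1 itself lay at 10.45, 10.45, 10.51 and 10.34 in shGFP and at 9.81, 9.81, 9.86 and 9.88 in shMKRN1, which leaves 66.2% of the control level (exact two-sided permutation p = 0.0286, the smallest that 70 assignments can give). Array medians lay between 7.14 and 7.24, and the leading principal component (37.6% of the variance) set shGFP 7 (23.2) and shMKRN1 8 (7.46) apart from the other arrays of their groups (-3.45 to 6.20 and -15.2 to -6.02). All 10 stem cell markers lay above the level of 6.50, under which 95% of 1194 olfactory and vomeronasal receptor genes lay. These receptors are mainly expressed in sensory neurons and serve here as a background, although their silence in these cells was not shown. That level was also exceeded by 70.2% of all genes, 8 of 10 primitive endoderm markers and 7 of 10 fibroblast markers, so it does not identify the cells. Of the stem cell markers 1 rose, the pluripotency factor gene Nanog (0.25; limma adjusted p = 0.0256), where 3.66% of all genes rose.

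The bases before the transcript start are shown for Gpx4 and Gpx2, the members with the largest increases, and for Gpx1, the only member that was lower, so that the genes can be compared at the sequence level. RefSeq places Gpx4 on chromosome 10, where the table of promoters (build GRCm38.p6) holds 4 starts for it, matching a gene known to make mitochondrial, cytosolic and nuclear forms from alternative starts; the first of the 3 neighbouring starts is used here. Each line gives the 250 bases upstream on the gene's own strand, chr10:80053315-80053564 (plus) for Gpx4, chr12:76795555-76795804 (minus) for Gpx2 and chr9:108338830-108339079 (plus) for Gpx1. Capitals mark matches, on either strand, to the CCAAT box (CCAAT) or the GC box (GGGCGG).
Gpx4: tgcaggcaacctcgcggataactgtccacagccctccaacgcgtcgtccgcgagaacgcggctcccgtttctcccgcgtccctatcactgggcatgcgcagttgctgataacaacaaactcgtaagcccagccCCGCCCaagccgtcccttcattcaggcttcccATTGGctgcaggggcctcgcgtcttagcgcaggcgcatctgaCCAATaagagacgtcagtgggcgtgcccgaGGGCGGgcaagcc
Gpx2: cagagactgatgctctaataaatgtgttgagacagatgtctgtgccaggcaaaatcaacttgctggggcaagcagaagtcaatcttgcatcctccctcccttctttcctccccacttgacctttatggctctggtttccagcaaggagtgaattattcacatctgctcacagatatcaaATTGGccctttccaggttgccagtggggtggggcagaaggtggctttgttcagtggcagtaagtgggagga
Gpx1: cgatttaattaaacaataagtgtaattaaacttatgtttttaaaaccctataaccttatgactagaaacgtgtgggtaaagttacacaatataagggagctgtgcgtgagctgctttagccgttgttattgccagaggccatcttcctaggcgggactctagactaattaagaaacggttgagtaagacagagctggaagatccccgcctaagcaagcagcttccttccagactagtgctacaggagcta
The Gpx4 window held 2 CCAAT boxes and 2 GC boxes, the Gpx2 window 1 CCAAT box, and the Gpx1 window neither. At least 1 CCAAT box was present in 33.8% and at least 1 GC box in 32.7% of all 32851 windows of this length, so the presence of either is not unusual. How many windows hold 2 of each, as that of Gpx4 does, was not counted. The TATA box (TATAAA, in 12.4% of windows), the core of the antioxidant response element (TGACNNNGC, 10.2%) and the core of the ATF4 element (TGATGNAA, 3.45%) had no match in these 3 windows. The CCAAT and GC boxes at the other Gpx4 starts numbered 1 and 0, 3 and 2, and 0 and 1, so the Gpx4 counts depend on the start used. The window of Gpx8, which had a higher mean in shMKRN1, held neither box, so their absence is not particular to Gpx1. All these matches are letters in a sequence, and no binding was measured.

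Gpx4 showed the largest difference of the family. Its level was 10.50, 10.21, 10.53 and 10.21 in shGFP 1, 3, 5 and 7 and 11.10, 11.16, 11.27 and 11.13 in shMKRN1 2, 4, 6 and 8. Every shMKRN1 array was above every shGFP array, with a gap of 0.57 between the nearest 2. The group means were 10.36 ± 0.18 and 11.17 ± 0.073 (SD, n = 4 each), a difference of 0.80 (SE 0.086), or 1.75-fold with a 95% confidence interval of 1.53 to 2.00. By size of increase it stood 27th among all genes measured. On this probe set the control arrays fell into a higher pair (1 and 5) and a lower pair (3 and 7), while the shMKRN1 arrays lay close together. Since these are bulk samples, more RNA per cell and a larger share of cells with high Gpx4 cannot be told apart.

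The other Gpx4 probe set gave the same order of the groups. It lay at 10.03, 9.92, 9.97 and 9.96 in shGFP and at 10.55, 10.68, 10.72 and 10.57 in shMKRN1, a difference of 0.66 or 1.58-fold. The gap between the nearest arrays was 0.51. The control arrays did not fall into 2 separate pairs here, with shGFP 5 and 7 at 9.97 and 9.96. The SD was 0.047 in shGFP and 0.081 in shMKRN1, so on this probe set the shGFP arrays lay closer together. On both probe sets shMKRN1 6 was highest and shMKRN1 2 the lowest of its group, and shGFP 3 was the lowest or level with the lowest of all arrays. After each group's mean was subtracted the probe sets had a Pearson correlation of 0.64 over the 8 arrays; they report on the same RNA extracts and are not independent. Whether their probes also match processed copies of Gpx4 was not tested.

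**Figure D1:**
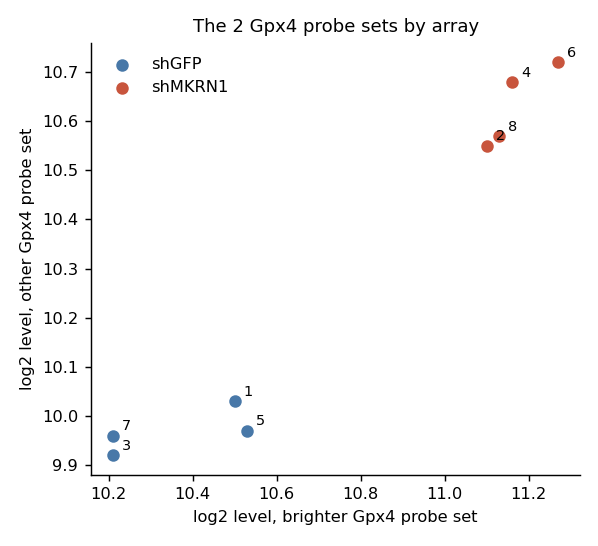
Log2 level of the brighter Gpx4 probe set (x axis) against that of the other (y axis), 1 point per array, labelled by array number. The 4 shMKRN1 arrays lie at 11.10 to 11.27 and 10.55 to 10.72, clear of the shGFP arrays at 10.21 to 10.53 and 9.92 to 10.03.

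Neither measured neighbour of Gpx4 passed the test. Polr2e, which encodes a subunit shared by the RNA polymerases, is the nearest measured gene on 1 side and differed by 0.23 (SE 0.064; limma adjusted p = 0.0707), short of the threshold of 0.05. Sbno2, on the other side, differed by -0.02 (SE 0.085; limma adjusted p = 0.921). Among 14004 other genes above the receptor background, those whose deviations from the group means followed Gpx4 most closely over the 8 arrays were Trmt1l, Polr2f, Rbm12b2, Map3k12 and Mfsd14a (Pearson r from 0.95 to 0.97). This likeness describes the scatter within groups and leaves out the difference between them. These genes were picked as the highest of 14004 correlations over only 8 arrays. How high the leading values would run for unrelated genes was not tested. The other Gpx4 probe set itself reached only 0.64 with the brighter one by this measure. The named genes are therefore not shown to follow Gpx4. With quantile normalization r was 0.72 for Map3k12 and 0.80 for Mfsd14a. Within the family the same measure ran from -0.69 for Gpx2 to 0.62 for Gpx8.

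Gpx1, the abundant cytosolic peroxidase of most tissues, was the member that went the other way. Its level was 11.85, 11.83, 11.80 and 11.73 in shGFP and 11.65, 11.65, 11.56 and 11.44 in shMKRN1. The groups did not overlap, although the gap between shGFP 7 and the nearest shMKRN1 arrays was only 0.079. The means were 11.80 ± 0.056 and 11.57 ± 0.099 (SD, n = 4 each), a difference of -0.23 (SE 0.061), which leaves 85.3% of the control level. Its neighbours Rhoa, a small GTPase gene, and Usp4, a deubiquitinase gene, differed by -0.03 and -0.05 (limma adjusted p = 0.819 and 0.718).

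Gpx2, best known from the epithelium of the gut, was higher in shMKRN1. It lay at 8.99, 9.15, 9.09 and 9.21 in shGFP and at 9.56, 9.34, 9.38 and 9.57 in shMKRN1, without overlap. The difference between the means of 9.11 ± 0.094 and 9.46 ± 0.12 (SD, n = 4 each) was 0.36 (SE 0.072), or 1.28-fold. shMKRN1 2 and 8 were the higher pair of their group, and within groups Gpx2 tended to be high where Gpx4 was low, as the correlation of -0.69 states. This is not particular to Gpx2. The same correlation was -0.67 for Gpx5, which lay within the receptor background, -0.67 for Gpx6 and -0.61 for Gpx7. Its neighbours Churc1 and Rab15 differed by -0.004 and -0.01 (limma adjusted p = 0.990 and 0.978), and for both the sign turned with median centring of the arrays.

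Gpx3 encodes the secreted peroxidase of plasma. Its level was 8.97, 9.13, 9.10 and 8.84 in shGFP and 9.32, 9.38, 9.16 and 9.11 in shMKRN1. The groups overlapped by 1 pair of arrays, shMKRN1 8 lying just below shGFP 3, and the difference was 0.23 (SE 0.082). Its neighbours Hint1 and Tnip1 differed by 0.03 and 0.12 (limma adjusted p = 0.843 and 0.266).

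**Figure D2:**
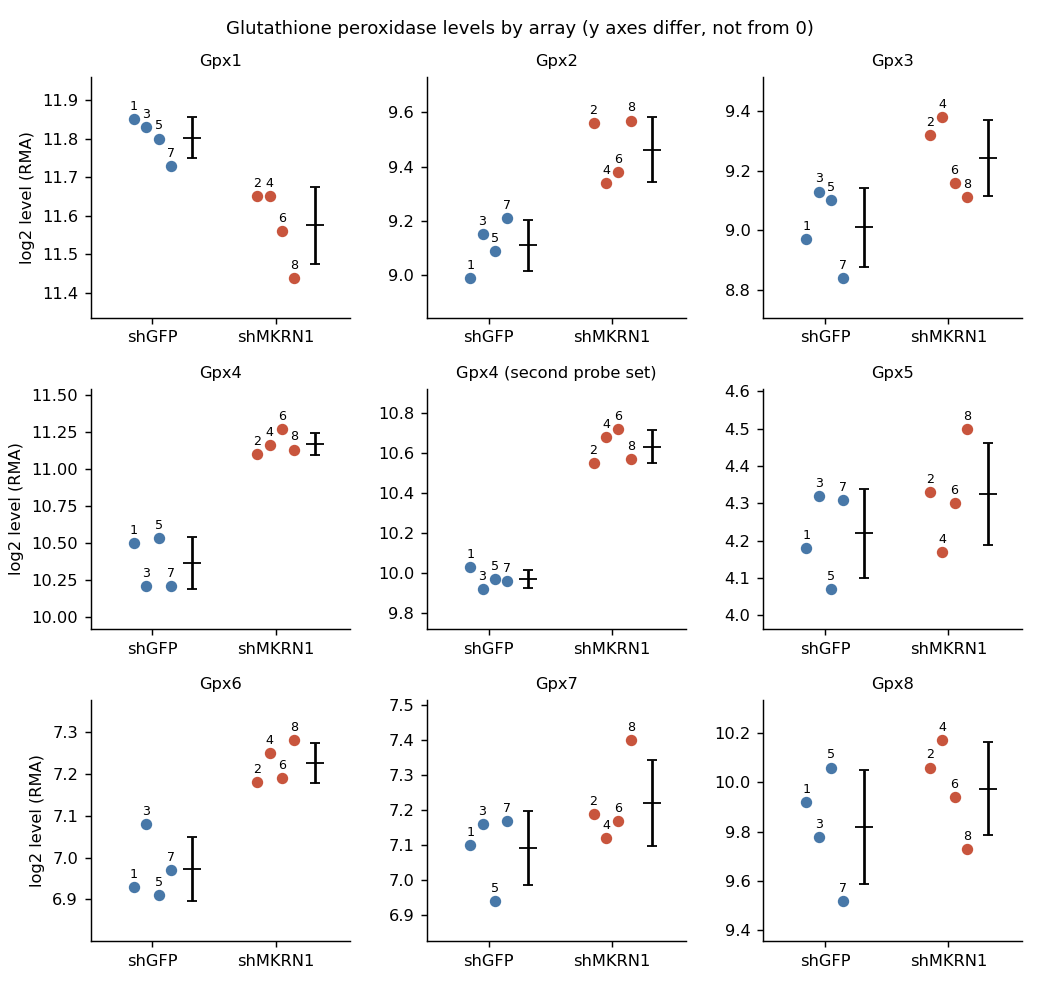
Log2 level (y axis, scaled for each panel and not starting at 0) of the 9 glutathione peroxidase probe sets in the shGFP and shMKRN1 arrays, 1 point per array with its number. Black bars give the group mean ± SD (n = 4). Both Gpx4 panels, Gpx1, Gpx2 and Gpx6 show groups that do not overlap, with Gpx1 lower in shMKRN1.

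The members with cysteine in the active site begin with Gpx6 and Gpx5. Gpx6, known from the olfactory epithelium, lay at 6.93, 7.08, 6.91 and 6.97 in shGFP and at 7.18, 7.25, 7.19 and 7.28 in shMKRN1. The groups did not overlap, and the difference was 0.25 (SE 0.055), but the level exceeded that of only 98.3% of the receptor genes, so expression of Gpx6 in these cells is not established by these values. Its measured neighbour Olfr1367, a receptor gene, differed by 0.05 (limma adjusted p = 0.690). Gpx5, known from the epididymis and next to Gpx6 on chromosome 13, ranged from 4.07 to 4.50 over all arrays, higher than 42.2% of the receptor genes and thus within the background. A difference in Gpx5 of 0.11 (0.06 without shGFP 5 and 0.05 without shMKRN1 8) could therefore not be assessed.

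GPX7 and GPX8 reside in the endoplasmic reticulum, where they pass the oxidising power of peroxide to protein disulfide isomerases. Gpx7 lay at 7.10, 7.16, 6.94 and 7.17 in shGFP and at 7.19, 7.12, 7.17 and 7.40 in shMKRN1. The groups overlapped, shMKRN1 8 was the highest array, and the difference was 0.13 (SE 0.075). It was 0.07 without shMKRN1 8 and 0.08 without shGFP 5. The level exceeded that of 98.7% of the receptor genes, close to the place of Gpx6, with the same limit. Gpx8 lay at 9.92, 9.78, 10.06 and 9.52 in shGFP and at 10.06, 10.17, 9.94 and 9.73 in shMKRN1. It varied most between arrays of a group (SD 0.23 and 0.19), with shGFP 7 and shMKRN1 8 lowest, and differed by 0.15 with a 95% confidence interval of -0.12 to 0.43. That difference was 0.05 without shGFP 7, 0.09 without shMKRN1 4, and 0.23 without shGFP 5 or without shMKRN1 8. The neighbours of Gpx7 (Shisal2a and Tut4) and of Gpx8 (Mir449a and Gzma) differed by -0.09 to 0.15 (limma adjusted p from 0.164 to 0.756).

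**Figure D3:**
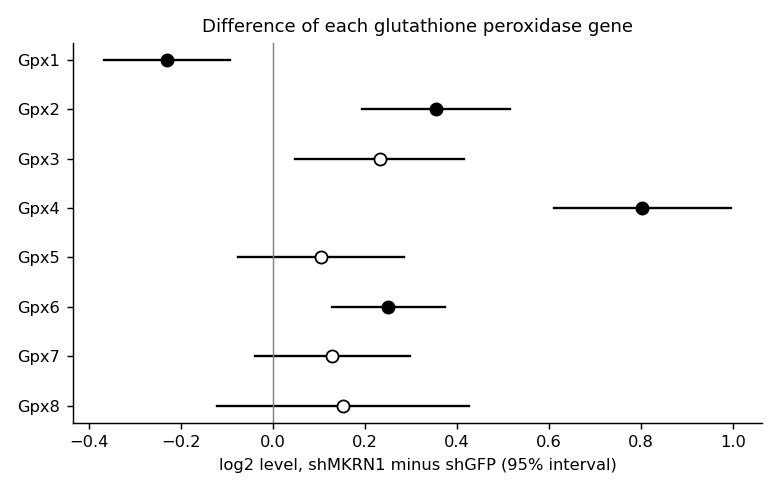
Difference in log2 level, shMKRN1 minus shGFP (x axis), for each of the 8 genes with the 95% confidence interval of the limma fit. Filled points mark genes whose groups did not overlap. Gpx4 lies at 0.80, Gpx2 at 0.36, and Gpx1 alone is below 0.

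Across the family, 7 genes had a higher mean in shMKRN1 and 1 a lower one, against 52.8% of all genes with a higher mean, and the median difference was 0.19 against 0.01 over all genes. Of the 4 selenocysteine members 3 had a higher mean, with differences from -0.23 to 0.80. The 4 cysteine members all had a higher mean, by 0.11 to 0.25. Among the cysteine members, however, the groups of Gpx5, Gpx7 and Gpx8 overlapped and the 95% confidence intervals of their differences included 0. The groups did not overlap for 4 of 8 members, against 14.1% of all genes. In the fit over all genes 3 members, Gpx2, Gpx4 and Gpx6, were among the 3.66% called higher and none among the 0.838% called lower (limma, adjusted p below 0.05). As the same contrast led to the choice of the family, nothing is read from these counts. Leaving out each array in turn gave differences of 0.75 to 0.86 for Gpx4, 0.32 to 0.40 for Gpx2, 0.23 to 0.29 for Gpx6 and -0.25 to -0.18 for Gpx1. The calls themselves moved with the setting: over the alternatives run, Gpx4 was called in 15 of 15, Gpx2 in 8 of 15, Gpx6 in 6 of 14 and Gpx1 in 4 of 15. With quantile normalization, for example, Gpx1 was called and Gpx2 was not. These fits use the arrays that led to the choice of the family and are no support for it. Without both shGFP 7 and shMKRN1 8 the differences were 0.76 for Gpx4, 0.35 for Gpx2, 0.23 for Gpx6 and -0.21 for Gpx1. Of 10 fibroblast markers, 2 rose, Pdgfrb (0.35; limma adjusted p = 0.0342) and Col1a1 (0.37; limma adjusted p = 0.0486), and Postn, Fap and Lum lay within the receptor background. The mean level of that list was 6.55 to 6.71 in shGFP and 6.63 to 6.84 in shMKRN1. None of 10 primitive endoderm markers passed limma (2 with an unadjusted p under 0.05; mean level 7.37 to 7.53 and 7.33 to 7.49). Whether other cell types had a part in the differences of the peroxidases was not tested.

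The genes that work with the peroxidases were examined in 7 lists chosen by function. Earlier results of these data were known when the lists were drawn up, so their calls are no independent test. Of their 108 measured genes, 5 rose and 1 fell (5.56%, against 4.49% of all genes called in either direction), and their median difference was 0.04. Most of the surrounding pathway thus did not pass the test, and the 6 that did are given here with their values. Counts of genes with an unadjusted p under 0.05 are given for these lists and for the primitive endoderm markers without a background. The share of all genes under that level was not counted and may lie well above what chance alone gives, so nothing is read from these counts.

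Of 17 genes of glutathione synthesis, breakdown and recycling, 2 rose and none fell (6 had an unadjusted p under 0.05), with a median difference of 0.05. Chac1, which encodes an enzyme that breaks down glutathione, lay at 8.57, 8.59, 8.49 and 8.63 in shGFP and at 9.24, 9.03, 9.24 and 9.30 in shMKRN1, a rise of 0.63 (SE 0.067; limma adjusted p = 0.00154). Gss, the synthetase of the last step of glutathione synthesis, lay at 8.71, 8.75, 8.77 and 8.53 in shGFP and at 9.06, 9.14, 9.09 and 8.89 in shMKRN1. The groups of both genes did not overlap. Gss rose by 0.35 (SE 0.073; limma adjusted p = 0.0263), but its call was lost without shGFP 1 or 3 or shMKRN1 2, 4 or 6 (adjusted p 0.0594 to 0.0903). The subunits of the rate-limiting ligase, Gclc and Gclm, differed by 0.04 each (limma adjusted p = 0.742 and 0.755), and the reductase Gsr by -0.07 (limma adjusted p = 0.480). Slc7a11, the cystine importer that supplies the cysteine of glutathione, lay within the receptor background (means 5.67 and 5.87) and differed by 0.20 (limma adjusted p = 0.271).

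Of 13 genes of selenocysteine synthesis and insertion, 1 rose and none fell (5 had an unadjusted p under 0.05), with a median difference of 0.10. Sars1, the seryl-tRNA synthetase gene, charges the selenocysteine tRNA with serine in the first step but serves all serine codons as well. It lay at 10.81 to 10.88 in shGFP and at 11.09 to 11.21 in shMKRN1 and rose by 0.32 (SE 0.050; limma adjusted p = 0.00787). Sephs2, which makes the selenium donor, differed by 0.16 (SE 0.068; limma adjusted p = 0.216), and Secisbp2, which binds the selenocysteine insertion element in the mRNA, by 0.03 (SE 0.048; limma adjusted p = 0.780).

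Of the 19 other selenoprotein genes none rose and 1 fell (2 had an unadjusted p under 0.05), with a median difference of -0.04. Selenow, which encodes a small redox protein, lay at 10.87, 10.79, 10.67 and 10.77 in shGFP and at 10.49, 10.43, 10.55 and 10.49 in shMKRN1. It fell by 0.29 (SE 0.056; limma adjusted p = 0.0218), and the groups did not overlap. The call was lost without shGFP 1 or 3 or shMKRN1 2, 4 or 6 (adjusted p 0.0551 to 0.0748). Txnrd1, the cytosolic thioredoxin reductase gene, differed by 0.08 (SE 0.050; limma adjusted p = 0.438).

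Of 26 genes of lipid peroxidation and iron handling, 2 rose and none fell (8 had an unadjusted p under 0.05), with a median difference of 0.04. Alox15 encodes a lipoxygenase that forms the phospholipid hydroperoxides GPX4 reduces. It lay at 7.40, 7.62, 7.86 and 7.69 in shGFP and at 8.83, 8.75, 8.51 and 8.52 in shMKRN1, and rose by 1.01 (SE 0.11; limma adjusted p = 0.00154). The iron exporter gene Slc40a1 lay at 8.54, 8.46, 8.67 and 8.37 in shGFP and at 8.94, 9.18, 9.03 and 8.86 in shMKRN1, and rose by 0.49 (SE 0.085; limma adjusted p = 0.0127). The groups of both did not overlap, and both calls held without each array in turn, that of Slc40a1 at an adjusted p of up to 0.0499 (without shGFP 3). Acsl4, which loads membranes with the fatty acids most prone to peroxidation, lay at 10.26 to 10.54 in shGFP and 10.00 to 10.19 in shMKRN1, a difference of -0.26 (SE 0.072; limma adjusted p = 0.0689). Aifm2, a ferroptosis suppressor gene that acts beside Gpx4, differed by 0.10 (SE 0.059; limma adjusted p = 0.410).

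No gene passed limma in the remaining 3 lists. Among 15 other peroxide and thiol enzymes 2 had an unadjusted p under 0.05: the peroxiredoxin gene Prdx4 at 0.28 (limma adjusted p = 0.102) and the glutaredoxin gene Glrx at 0.21 (limma adjusted p = 0.170). Among 10 genes of oxidative folding in the endoplasmic reticulum, the setting of GPX7 and GPX8, 4 did, led by the oxidase gene Ero1a at 0.19 (limma adjusted p = 0.104) and the disulfide isomerase gene Txndc5 at 0.23 (limma adjusted p = 0.104). Among NRF2, the main activator of antioxidant genes, and its partners (8 genes) 1 did, the repressor gene Bach1 at 0.16 (limma adjusted p = 0.124); Nfe2l2, which encodes NRF2, differed by 0.12 (limma adjusted p = 0.258).

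**Figure D4:**
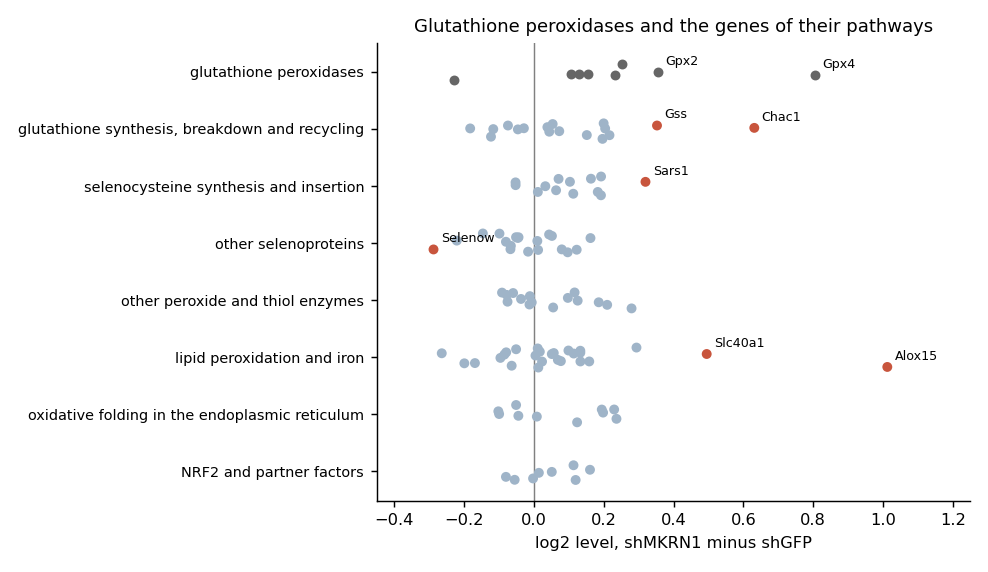
Difference in log2 level, shMKRN1 minus shGFP (x axis), for the 8 glutathione peroxidases (dark grey, shown as a description) and the genes of the 7 pathway lists, 1 point per gene. Red points passed limma at an adjusted p below 0.05 and are named, light points did not; vertical position within a row has no meaning. Gpx4 at 0.80 lies between Chac1 at 0.63 and Alox15 at 1.01.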

How the data were processed

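Total RNA of 8 samples (4 shGFP, 4 shMKRN1, grouped by title) was measured on Affymetrix gene arrays. The authors deposited 1 table of log2 levels (34760 probe sets). The submitters' processing notes name RMA and no version. RMA brings the arrays to a common distribution, so a shift of all RNA per cell is not visible, and it compresses differences of dim probe sets. Of the probe sets, 21640 had 1 symbol in the platform annotation, 1321 several and 11799 none. The 19937 genes were fitted with limma 3.58.1 in R 4.3.3 (group term, eBayes defaults, all 8 arrays, no filter), two-sided, with Benjamini-Hochberg adjustment over all genes. The fit was tested on simulated data. Entrez numbers matched 19855 genes to RefSeq (GRCm38.p6) for names and gene order; the promoter table is of the same build. The members and lists were chosen with earlier results of these data known. The rule for named genes took all members, called list genes or otherwise the leading 2 by p, 12 partner genes fixed by function, nearest measured neighbours and the 5 genes most like Gpx4. The genes Ggt1, Prdx5, Prdx6, Acsl3 and Por had no probe set with exactly 1 symbol and were not used. Alternatives were 2 scalings, the mean over probe sets, a filter at the median level, a trended robust variance, array weights and leaving out arrays. The number of arrays limits the precision.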

Additional observations from a re-analysis of the deposited data

Results flagged for a closer look

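Of 88 groups of 4 arrays examined for the genes named here, 2 held an array far from its group, where chance gives about 1 in 20. In shMKRN1 the cystine importer gene Slc7a11 lay at 5.63 on array 8 and at 5.92 to 5.97 on the others, so the gap took 0.850 of the range; all these levels are within the receptor background. The Gpx7 neighbour Shisal2a lay at 7.46 on shMKRN1 6 and at 7.50 on the others, a gap of 0.867 of a very narrow range. No peroxidase probe set held such an array.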

How the results depend on the processing

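All 117 recomputed differences of the 8 peroxidases kept their sign and moved by less than the spread between replicates. For Gpx5, Gpx7 and Gpx8 that spread is close to or above the difference itself. In most settings the size of the move was no test. Leaving out 1 array of a group, or 1 of each group, cannot move a difference by more than that spread. The filter and the trended robust variance leave it unchanged, as does the mean over probe sets for genes with only 1. Only the scalings, the array weights and, for Gpx4, the mean over probe sets could have moved a difference further. Mkrn1 kept its direction and threshold in all 15. Calls among the 108 partner genes moved with the setting. With 5 higher and 1 lower as reported, there were 13 higher and 2 lower after dropping genes below the median, 8 and 2 with a trended robust variance, 17 and 2 with array weights, and 2 lower with quantile normalization; leaving out 1 array gave 4 to 8 higher (8 without shGFP 5) and 0 to 2 lower (0 without shGFP 1 or 3 or shMKRN1 2, 4 or 6; 2 without shGFP 7). Over all genes, 729 higher and 167 lower became 1285 and 310 above the median level, 1225 and 324 with a trended robust variance, 1933 and 824 with array weights, 290 lower with quantile normalization, and 256 to 650 higher and 52 to 230 lower without 1 array. The cause was not tested, except that the filter adjusts over fewer genes and 7 arrays leave fewer degrees of freedom. The alternative without shGFP 7 and shMKRN1 8 was chosen after seeing the data and gave 6 higher and 1 lower partner genes. Of 504 recomputed values of named partner and neighbour genes, 462 kept direction and side of the threshold, 10 lost a call (Gss and Selenow, each in 5 of the 8 fits without 1 array), 19 gained one and 13 turned sign, all of them uncalled neighbours near 0: with median centring of the arrays Churc1 (0.0211), Rab15 (0.0172) and Sbno2 (0.00113), and without 1 array Churc1 (-0.0857 to 0.0665), Rab15 (-0.0638 to 0.0740), Sbno2 (-0.0952 to 0.0249), Hint1 (-0.00131 to 0.0680) and Gzma (-0.00553 to 0.140). No paired analysis was possible because the titles give the groups no replicate numbers in common and no label pairs neighbouring numbers. Probe sets near the receptor background (Gpx5, Gpx6, Gpx7, Slc7a11) limit what can be said of those genes.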
